A study of Mus musculus with 6 samples.

Results

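The genes described here encode the signalling chain of the T cell receptor, 33 genes listed by symbol and split by role. They comprise the CD3 chains with CD45, the proximal kinases, the adaptors, the downstream enzymes and exchange factors, the NFAT transcription factors and the negative regulators. A gene counted as measured when a probe annotated with its symbol alone was detected (detection p under 0.05) on at least 3 of the 6 arrays. Where several probes qualified, the one with the highest mean over all arrays stood for the gene. By this rule 31 of the 33 genes were measured, out of 9060 genes measured on the array. Lck, the Src family kinase that starts the cascade, had no probe listed under its symbol alone and was not analysed here. Neither of the 2 probes of Sos1, a RAS exchange factor, was detected on enough arrays.

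All RNA came from mature thymic natural killer T (NKT) cells, gated on CD44 and NK1.1, of C57BL/6 mice. The 3 DOCK8-deficient samples came from the Captain Morgan strain, which the sample titles also call a knockout, and the 3 wild type samples from wild type mice. Biotin-labelled cRNA of each sample was hybridised to 1 Illumina mouse array. The sources used here give no age, do not say whether a sample was 1 animal or a pool, and do not say what the Captain Morgan allele does to the transcript. The design text calls the DOCK8-deficient samples biological replicates and says nothing of this kind for the wild type ones, so the p-values below measure only the spread between these samples, which may in part be technical.

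The T cell receptor itself has no enzymatic activity. On contact with its ligand, which for NKT cells is a lipid held by CD1d, LCK phosphorylates the tyrosine motifs of the CD3 and zeta chains, ZAP-70 docks there, and ZAP-70 phosphorylates LAT and SLP-76. These adaptors gather phospholipase C gamma 1 and exchange factors, which open the calcium, NFAT, RAS and NF-kappaB branches. NKT cells are selected in the thymus by strong signals through this chain, and phosphatases, ubiquitin ligases and diacylglycerol kinases set its gain. DOCK8 is an exchange factor for CDC42 that acts on the actin cytoskeleton of lymphocytes, including at the synapse where the receptor signals.

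Between 36.4% and 40.7% of the probes were detected per array, and median scanner intensities lay between 182.9 and 234.8. Pearson correlations between arrays over the 9060 genes ran from 0.9756 to 0.986. DOCK8-deficient replicate 1 stood as close to the wild type arrays (mean r = 0.9835) as to its own group (0.9825), whereas the other 5 arrays were closer to their own group. Dock8 itself had log2 levels of 9.52, 9.42 and 9.46 in the DOCK8-deficient replicates and 9.45, 9.29 and 9.69 in the wild type ones, with overlapping groups and a difference of -0.01 (95% interval -0.33 to 0.32). Its 2 dimmer probes differed by 0.37 and 0.41, also with overlap, so no detected Dock8 probe separated the groups. Whether these probes can show the Captain Morgan allele was not determined. All 10 markers of mature NKT cells that were looked at, among them Zbtb16, Tbx21 and Klrb1c, were detected on all 6 arrays. Of the 7 B cell markers only Cd79b was measured, and it was detected on 4 arrays.

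Transcripts of the T cell receptor chain read much the same in DOCK8-deficient and wild type NKT cells. None of the 31 measured genes passed limma's test at an adjusted p under 0.05 (0 up, 0 down, adjusted p from 0.35 to 0.99), where 0.364% of all genes tested passed. At an unadjusted p under 0.05 there were 4 of the 31, or 12.9%, against 11.3% of all genes: Cblb, Dgka and Cd5 read higher in DOCK8-deficient cells and Themis lower. The median log2 difference, DOCK8-deficient minus wild type, was -0.03, with 14 genes higher and 17 lower, and the median over all genes was -0.00488. The median absolute difference was 0.12 for these genes and 0.148 for all genes. A lack of calls is not evidence of equal levels, so the 95% intervals matter more. Each taken alone, they lay within 1 log2 unit of zero, or 2-fold, for 28 of the 31 genes, and within 0.5 for 15. The 3 genes with wider intervals were Cd247, Plcg1 and Cd5. Among the 28, Themis and Pag1 were each detected on 1 DOCK8-deficient array. Their differences shrank to -0.13 and -0.06 without background correction, so their intervals cannot exclude a 2-fold difference in RNA. Txk, Grap2 and Ubash3b were dim but detected on all 6 arrays. Their differences of 0.13, -0.12 and 0.26 shrank to 0.03, -0.04 and 0.08, so their intervals are also less certain. In such bulk samples fewer expressing cells and less RNA per cell cannot be told apart.

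**Figure D1:**
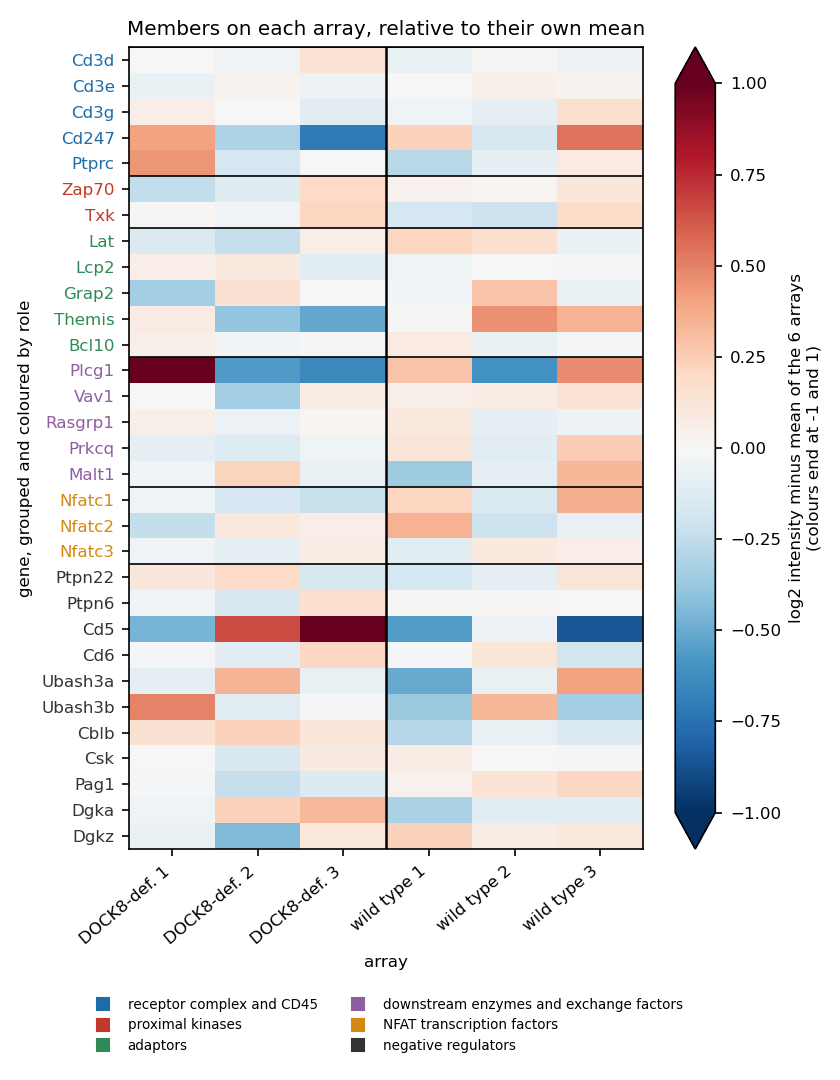
Log2 intensity of each of the 31 measured genes (rows, coloured by role) on each of the 6 arrays (columns), minus the gene's mean over the arrays; colours end at -1 and 1. Most rows are pale, and the strongest colours belong to Plcg1, Cd5 and Cd247, whose replicates differed most within a group.

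The group values did not overlap for 3 of the 31 genes (9.68%), against 17.1% of all genes. All 3 belong to the 11 negative regulators (27.3% of them): Cblb and Dgka read higher on every DOCK8-deficient array than on any wild type array, and Pag1 lower. Pag1 was detected on 1 DOCK8-deficient and 3 wild type arrays, so it entered only through the group where it was high. The pooled standard deviation within groups had a median of 0.17 for the 31 genes and of 0.19 for all genes. It ranged from 0.042 for Cd3e to 0.80 for Plcg1.

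**Figure D2:**
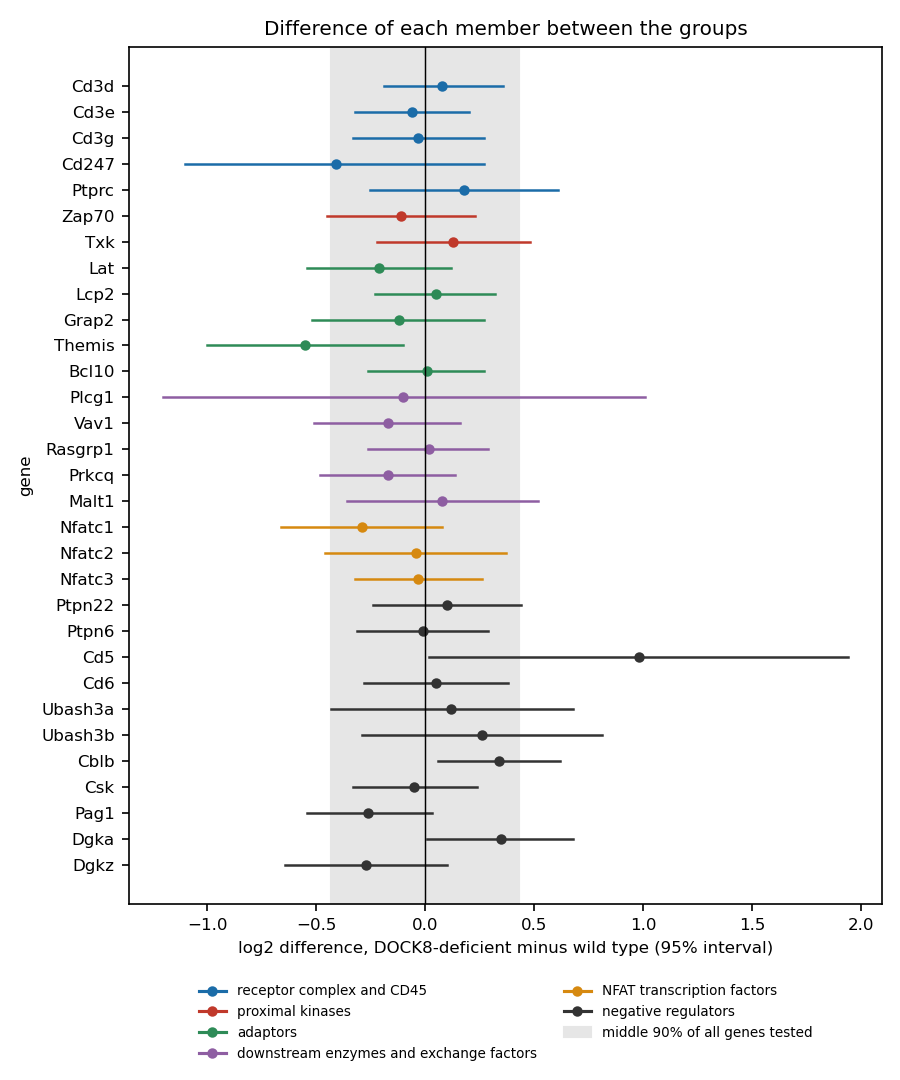
Log2 difference, DOCK8-deficient minus wild type, of the 31 genes with 95% intervals from limma, coloured by role; the grey band holds the middle 90% of all genes tested (-0.43 to 0.43). Only Cd5 and Themis lie outside the band, and most intervals cross zero.

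Promoter sequences are shown for the 4 genes with an unadjusted p under 0.05, the largest differences of the set relative to their error. Each is the 300 bases that RefSeq lists around a start of the gene in build GRCm38.p6, from 250 before to 50 after it, read 5′ to 3′ on the gene's strand. Capitals mark GGAAA, the core bound by NFAT factors, or its complement TTTCC on the other strand. These letters also hold GGAA, the core of ETS factor motifs. Themis and Dgka have 2 and 4 such windows, and the one listed first is shown. The windows lie at chr16:52031299-52031598 on the plus strand for Cblb, chr10:128745035-128745334 on the minus strand for Dgka, chr19:10738925-10739224 on the minus strand for Cd5, and chr10:28668110-28668409 on the plus strand for Themis.
Cblb: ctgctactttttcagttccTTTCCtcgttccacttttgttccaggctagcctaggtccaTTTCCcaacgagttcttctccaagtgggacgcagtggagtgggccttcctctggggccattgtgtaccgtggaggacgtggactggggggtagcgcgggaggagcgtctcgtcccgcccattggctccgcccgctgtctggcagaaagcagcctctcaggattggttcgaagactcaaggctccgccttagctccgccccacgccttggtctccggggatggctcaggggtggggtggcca
Dgka: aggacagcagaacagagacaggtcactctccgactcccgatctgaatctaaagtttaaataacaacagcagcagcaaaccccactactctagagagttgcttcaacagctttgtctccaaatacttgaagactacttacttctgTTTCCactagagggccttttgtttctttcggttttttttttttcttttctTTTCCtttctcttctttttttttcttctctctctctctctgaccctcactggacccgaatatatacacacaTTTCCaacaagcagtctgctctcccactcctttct
Cd5: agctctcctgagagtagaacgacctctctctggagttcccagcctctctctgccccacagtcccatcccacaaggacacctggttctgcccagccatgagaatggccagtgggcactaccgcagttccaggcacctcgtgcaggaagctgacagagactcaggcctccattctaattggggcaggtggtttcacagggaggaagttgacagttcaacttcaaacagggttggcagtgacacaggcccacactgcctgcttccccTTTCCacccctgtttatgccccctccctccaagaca
Themis: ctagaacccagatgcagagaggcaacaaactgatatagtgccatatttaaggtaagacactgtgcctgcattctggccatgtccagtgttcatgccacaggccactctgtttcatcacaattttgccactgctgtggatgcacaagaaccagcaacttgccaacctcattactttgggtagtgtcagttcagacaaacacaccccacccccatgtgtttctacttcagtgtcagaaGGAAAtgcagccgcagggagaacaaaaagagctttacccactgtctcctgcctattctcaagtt

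The Dgka window held 3 matches, the Cblb window 2 and the Cd5 and Themis windows 1 each. Such matches are common: 61.3% of all 32851 promoter windows hold at least 1, as do 30 of the 41 windows (73.2%) of the 27 measured genes that the table covers. The letters are a description of the sequence, and no binding was measured.

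The invariant receptor chains showed tight replicates. Cd3d, which encodes CD3 delta, read 13.87, 13.84 and 14.02 in DOCK8-deficient replicates 1 to 3 and 13.80, 13.88 and 13.82 in wild type replicates 1 to 3. Cd3e, for CD3 epsilon, read 13.81, 13.91 and 13.83 against 13.88, 13.93 and 13.91, and Cd3g, for CD3 gamma, 14.53, 14.47 and 14.36 against 14.43, 14.38 and 14.63. All these are levels on the log2 scale, and for each chain the groups overlapped. Their differences were 0.08 ± 0.12, -0.06 ± 0.11 and -0.03 ± 0.13 (SE), with 95% intervals no wider than -0.33 to 0.36 over the 3 chains. The second probe of Cd3e differed by -0.05.

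The zeta chain, which carries most of the phosphorylation motifs of the complex, behaved less evenly. The brightest Cd247 probe read 10.41, 9.70 and 9.30 in DOCK8-deficient cells and 10.24, 9.85 and 10.55 in wild type cells, a difference of -0.41 ± 0.30 (adjusted p = 0.66). DOCK8-deficient replicate 1 lay within the wild type values and replicates 2 and 3 below them. On the next probe replicate 1 was the lowest of all arrays (7.69, 8.44 and 8.29 against 8.44, 8.63 and 8.52), and no DOCK8-deficient value exceeded a wild type one, for a difference of -0.39. The third probe differed by -0.10. For the brightest Cd247 probe the difference was -0.72 without DOCK8-deficient replicate 1 and -0.16 without replicate 3, the extremes over the alternatives, with 0 calls.

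CD45, the receptor phosphatase encoded by Ptprc that keeps LCK active, read 11.38 ± 0.31 in DOCK8-deficient and 11.20 ± 0.18 in the wild type (mean ± SD over 3 arrays a group), with DOCK8-deficient replicate 1 the highest at 11.73. Its 4 detected probes split evenly, 2 higher and 2 lower, between -0.13 and 0.31. CD45 is made in several splice forms, and the probes were not mapped to exons here.

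Of the proximal kinases, Zap70 and Txk were measured. Zap70, the kinase that docks on the phosphorylated chains, read 12.44, 12.57 and 12.89 in DOCK8-deficient cells and 12.73, 12.71 and 12.80 in wild type cells. The DOCK8-deficient values spanned the wild type ones, and the difference was -0.11 ± 0.15 (adjusted p = 0.84). Its other detected probes differed by -0.35 and -0.05, so all 3 lay on the lower side. Txk, a Tec family kinase that acts on phospholipase C gamma 1, read 6.12, 6.07 and 6.32 against 5.93, 5.90 and 6.29, a difference of 0.13 ± 0.15 (adjusted p = 0.81). For both kinases the 95% interval lay within 0.5 of zero. The Txk probe was dim, though detected on all 6 arrays, and its difference was 0.03 without background correction. Its narrow interval therefore does not show that Txk RNA was unchanged.

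Adaptor transcripts had a median difference of -0.12 over 5 genes. Lat, which encodes the membrane scaffold phosphorylated by ZAP-70, read 12.16, 12.07 and 12.37 in DOCK8-deficient cells and 12.52, 12.46 and 12.24 in wild type cells, with overlapping groups and a difference of -0.21 ± 0.14. Its second probe differed by -0.37. Lcp2, for SLP-76, which joins LAT to the calcium branch, differed by 0.05 ± 0.12, and its 3 probes lay between -0.03 and 0.05. Grap2, for GADS, which bridges LAT and SLP-76, differed by -0.12 ± 0.17, and Bcl10, the link to NF-kappaB, by 0.01 ± 0.12 (95% interval -0.26 to 0.27).

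Themis, a T lineage protein that tunes receptor signals during thymic selection, had the lowest difference of all 31 genes. It read 5.68, 5.21 and 5.09 in DOCK8-deficient cells and 5.61, 6.06 and 5.95 in wild type cells, a log2 difference of -0.55 ± 0.19 (95% interval -1.0 to -0.10, adjusted p = 0.35 by limma). DOCK8-deficient replicates 2 and 3 lay below every wild type value, and replicate 1 fell inside the wild type range. The probe was dim, detected on 1 DOCK8-deficient and 3 wild type arrays, and so entered the test only through the group where it was high. The gene's other 2 probes were detected on at most 1 array. The difference was between -0.72 and -0.13 over the 14 alternatives that kept the probe. Themis is also expressed strongly by double-positive thymocytes. Of 11 markers of that stage 7 were measured, with differences from -1.69 for Dntt to -0.05 for Cd4 and a median of -0.49. The groups overlapped for Rag1, Arpp21, Cd8b1 and Cd4 and did not for Cd1d1, Satb1 and Dntt. Dntt, a recombination enzyme gene, was the only one past the threshold, but it was detected on 0 DOCK8-deficient and 3 wild type arrays and so entered the test only through the group where it was high. The summed level of the 7 on the linear scale was 12030 to 13460 in DOCK8-deficient and 15490 to 17200 in wild type samples, most of it from Satb1. Without Satb1, a choice made after seeing the data, it was 1875 to 2212 against 2233 to 2788. Most of that came from Cd8b1, which differed by -0.07. Further, Rag2, Ptcra and Cd8a were not detected on enough arrays. The part of such cells in the Themis difference was not tested.

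Among the downstream enzymes, the median difference was -0.10 over 5 genes, with 0 of them at an unadjusted p under 0.05. Vav1, an exchange factor for RAC and an organiser of the synapse, read 10.91 ± 0.23 in DOCK8-deficient and 11.08 ± 0.04 in wild type samples (mean ± SD over 3 arrays a group), a difference of -0.17 ± 0.15. DOCK8-deficient replicate 2 stood lowest, at 10.65. Rasgrp1, the diacylglycerol-activated RAS exchange factor, differed by 0.02 ± 0.12 on its brightest probe, and its 2 dimmer probes read -0.14 and 0.31.

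Prkcq, for protein kinase C theta of the NF-kappaB branch, had the smallest p of these enzymes and read 10.02, 9.98 and 10.07 against 10.23, 10 and 10.36, or -0.17 ± 0.13 (adjusted p = 0.70). Its second probe differed by 0.02. Malt1, the protease partner of BCL10, differed by 0.08 ± 0.19, with wild type values from 10.01 to 10.70 that enclosed all 3 DOCK8-deficient ones. Plcg1, which encodes phospholipase C gamma 1, gave no usable size: its single probe was detected on 1 DOCK8-deficient and 2 wild type arrays, read between 4.74 and 6.46, and had a 95% interval of -1.20 to 1.01.

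All 3 NFAT genes, whose products enter the nucleus when calcineurin is activated, read lower on their brightest probe, without a call. Nfatc2 and Nfatc3 differed by -0.04 ± 0.18 and -0.03 ± 0.12. Of the 7 Nfatc2 probes only 1 was detected, and the 5 detected Nfatc3 probes split into 3 lower and 2 higher, between -0.23 and 0.24.

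Nfatc1 was the NFAT gene with the largest difference. Its brightest probe read 11.02, 10.90 and 10.84 in DOCK8-deficient cells and 11.28, 10.92 and 11.43 in wild type cells, a difference of -0.29 ± 0.16 (adjusted p = 0.55), with overlap through wild type replicate 2. Of its 6 detected probes, 5 read lower and 1 higher. The lowest p among all 67 detected probes of the receptor chain belonged to an Nfatc1 probe that read 7.24, 6.97 and 7.19 against 7.62, 7.65 and 7.73. There the groups did not overlap, and the difference was -0.54 ± 0.13 (adjusted p = 0.21 in limma over 14559 detected probes, of which 0.213% passed). The probe on the other side read 9.17, 8.99 and 9.07 against 8.87, 8.78 and 8.86, also without overlap, a difference of 0.24 (adjusted p = 0.58). Nfatc1 is transcribed from alternative starts and ends. All 3 probes annotated with one of its transcripts read lower, and of the 3 annotated with the other, 2 read lower and 1 higher. Those 2 lower probes were dim, reading 4.75 to 6.54, and were detected on 5 and 4 arrays. The higher one was brighter and detected on all 6. Where each lies in the gene was not determined.

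**Figure D3:**
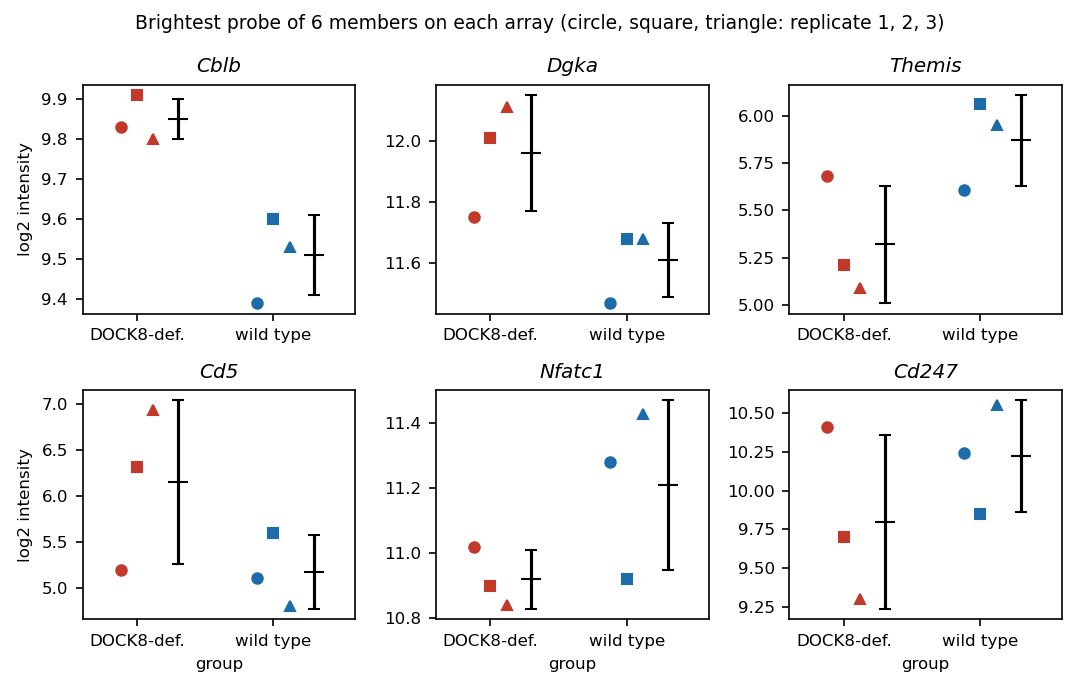
Log2 intensity of the brightest probe of Cblb, Dgka, Themis, Cd5, Nfatc1 and Cd247 on each array, with the mean and SD of each group (n = 3) in black; each panel has its own axis, which does not start at 0. The groups are apart for Cblb and Dgka and overlap for the other 4.

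Negative regulators held 3 of the 4 genes at an unadjusted p under 0.05, and all 3 read higher: 3 of 11, or 27.3%, where 11.3% of all genes had such a p. Cd5, among them, rests on a dim probe detected on 3 arrays. The count of 4 was unstable. It was 0 without DOCK8-deficient replicate 2, 5 without replicate 1, 1 with median scaling and 2 with the stricter filter. Of the 11, 7 were higher and 4 lower, with a median difference of 0.10. A second list, of 17 further measured negative regulators, leaned the other way, with 6 higher, 11 lower and a median of -0.13. Over the 20 measured genes of the other roles the median was -0.05, with 7 higher and 13 lower. No test of the difference between roles was made, and 0 negative regulators passed over all genes.

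Cblb encodes a ubiquitin ligase that restrains signalling in the absence of CD28 costimulation. It read 9.83, 9.91 and 9.80 in DOCK8-deficient cells and 9.39, 9.60 and 9.53 in wild type cells, a difference of 0.34 ± 0.12, or 1.26-fold (95% interval 0.06 to 0.62, adjusted p = 0.35). Every DOCK8-deficient value exceeded every wild type value. A second probe gave the same order, 8.76, 8.34 and 8.47 against 8.12, 7.79 and 7.94, a difference of 0.58 ± 0.16 (adjusted p = 0.28 over all probes). On the third probe, which is dimmer, the groups overlapped and the difference was 0.14. Cblb kept its sign under all 15 alternatives, between 0.27 and 0.39, with adjusted p no lower than 0.15. Leaving out an array could not reverse the sign, as the groups did not overlap, and several other alternatives left the difference unchanged.

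The diacylglycerol kinases, which remove the lipid that activates RASGRP1 and protein kinase C theta, lay on opposite sides. Dgka, for the alpha isoform, read 11.75, 12.01 and 12.11 in DOCK8-deficient cells and 11.47, 11.68 and 11.68 in wild type cells, a difference of 0.35 ± 0.14, or 1.27-fold (95% interval 0.01 to 0.68, adjusted p = 0.43). The groups did not overlap, and DOCK8-deficient replicate 1 lay nearest to the wild type values. Its other probes differed by 0.25 and 0.30, both with overlap. The 0.30 came from DOCK8-deficient replicate 1 alone: that probe read 8.84, 7.50 and 7.35 against 7.60, 7.50 and 7.68. Dgkz, for the zeta isoform, read 10.79, 10.42 and 10.96 against 11.09, 10.93 and 10.96, a difference of -0.27 ± 0.16 (adjusted p = 0.59), and its 3 detected probes lay between -0.38 and -0.26. So on group means all 3 detected probes of Dgka read higher, 1 of them through a single array, and all 3 of Dgkz lower. Of the 6 probes, 0 passed.

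**Figure D4:**
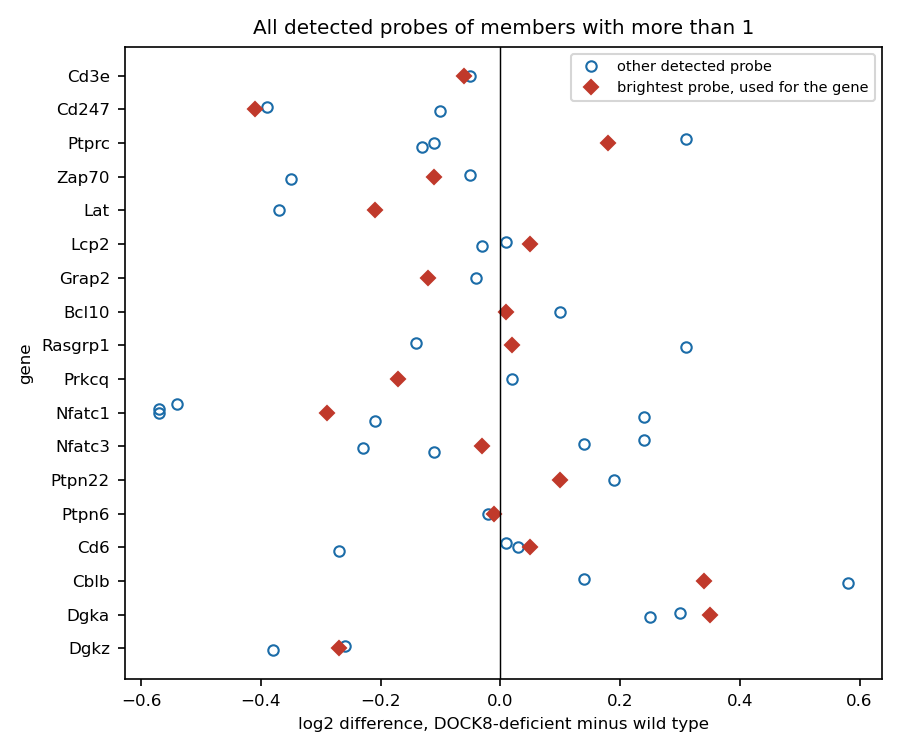
Log2 difference, DOCK8-deficient minus wild type, of every detected probe of the 18 genes with more than 1 detected probe; red diamonds are the brightest probes and open circles the others, offset slightly in height. Cblb and Dgka lie to the right of zero on all their probes and Cd247, Zap70, Lat and Dgkz to the left, while Nfatc1, Nfatc3 and Ptprc have probes on both sides. The Dgka probe at 0.30 lies there through DOCK8-deficient replicate 1 alone.

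CD5, a surface inhibitor whose level follows the strength of receptor signals in thymocytes, gave the highest difference and one of the widest errors. Cd5 read 5.19, 6.31 and 6.94 in DOCK8-deficient cells and 5.10, 5.6 and 4.80 in wild type cells, a difference of 0.98 ± 0.42 (95% interval 0.02 to 1.94, adjusted p = 0.44). DOCK8-deficient replicates 2 and 3 lay above the wild type values and replicate 1 among them. Its only probe was detected on 2 DOCK8-deficient arrays and 1 wild type array. That probe is annotated with a clone sequence and not with a reference transcript, and where it lies in the gene was not determined. The size depended on the processing, from 0.27 without background correction to 1.46 without DOCK8-deficient replicate 1, and was 0.58 without DOCK8-deficient replicate 3. Cd6, a related surface receptor, was bright and differed by 0.05 ± 0.14, with 12.53, 12.44 and 12.75 against 12.53, 12.67 and 12.36. Of its 3 other probes, 2 read 0.01 and 0.03 and 1 read -0.27.

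Pag1 encodes the raft protein that brings the inhibitory kinase CSK to the membrane. It read 5.51, 5.30 and 5.39 in DOCK8-deficient cells and 5.57, 5.67 and 5.74 in wild type cells. The groups did not overlap, and the difference was -0.26 ± 0.12 (adjusted p = 0.49). But the probe was dim, detected on 1 DOCK8-deficient array and 3 wild type arrays, and so entered only through the group where it was high. Csk itself differed by -0.05 ± 0.12.

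The phosphatases of the group differed little. Ptpn6, which encodes SHP-1, read 13.26 ± 0.17 in DOCK8-deficient and 13.27 ± 0.01 in wild type samples (mean ± SD over 3 arrays a group), and its second probe differed by -0.02. Ptpn22, whose product dephosphorylates LCK and ZAP-70, differed by 0.10 ± 0.15. The paired suppressors of T cell receptor signalling, Ubash3a and Ubash3b, differed by 0.12 ± 0.24 and 0.26 ± 0.24, with overlapping groups.

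Across the receptor chain 18 genes had more than 1 detected probe. In 11 of them all probes read on the same side, and in 7 they were mixed. Of the 36 probes other than the brightest, 27 had the sign of the brightest and 9 the opposite one, and 0 passed over all detected probes.

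Further genes of the pathway were taken from 3 lists of 84 genes in all, of which 69 were measured. Il2 rose, Pik3ip1 fell and the other 67 did not pass at the adjusted threshold. Of the 69 genes, 14 (20.3%) had an unadjusted p under 0.05, beside 11.3% of all genes. Because the lists were chosen with earlier results of these data known, the 2 shares do not test for enrichment. The 35 measured positive genes had 0 calls and a median difference of 0.02. The 3 of smallest p were Orai1, Tespa1 and Trat1. Orai1, the pore of the calcium channel that receptor signals open, read 9.27, 9.61 and 9.52 in DOCK8-deficient cells and 8.70, 8.66 and 8.66 in wild type cells. The groups lay clearly apart, by 0.79 ± 0.13 or 1.73-fold, but the adjusted p was 0.063. It passed in 5 of the 15 alternatives (adjusted p from 0.0029 to 0.033) and not in the other 10 (from 0.052 to 0.64). Its known partners Stim1 and Stim2, named for that reason, calcium sensors of the endoplasmic reticulum, differed by 0.21 and 0.19. Tespa1, a thymic signalling protein, differed by 0.38 ± 0.15, and Trat1, which stabilises the receptor complex at the surface, by -0.48 ± 0.19 (adjusted p = 0.39 and 0.40).

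Among 17 measured further negative regulators, Pik3ip1, an inhibitor of PI3 kinase, fell. It read 7.03, 6.99 and 6.85 in DOCK8-deficient cells and 7.96, 7.88 and 8.09 in wild type cells, 2.03-fold lower (log2 difference -1.02 ± 0.12, adjusted p = 0.030), with no overlap. Its call was lost without any single array (adjusted p from 0.063 to 0.13). The other 16 did not pass. In this list 11 genes read lower and 6 higher.

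The list of transcriptional targets of the receptor had 17 measured genes, with Il2 called and 16 not. Il2, the T cell growth factor induced by NFAT, read 8.62, 8.62 and 8.80 against 7.71, 7.34 and 7.76, 2.11-fold higher (log2 difference 1.07 ± 0.15, adjusted p = 0.037), with the groups apart. Leaving out any single array ended this call too (0.088 to 0.15), as did median scaling (0.11). At an unadjusted p under 0.05 there were 8 of the 17 (47.1%, against 11.3% of all genes), 5 higher and 3 lower. The list was chosen with earlier results of these data known, so this share is a description and not a test of enrichment. Cd69 and Tnfrsf9, named after their values were seen, stood at 0.86 ± 0.20 and -0.85 ± 0.20 (adjusted p = 0.15 for both). Tnfrsf9, the costimulatory receptor 4-1BB, also had a second probe that read 0.79 higher. Both its probes were dim. The brightest read 5.35 to 6.74 and was detected on 2 DOCK8-deficient and 3 wild type arrays. The second was detected on 3 arrays and read 5.56, 6.16 and 5.64 against 4.83, 5.04 and 5.13. No direction can be given for this gene, although it is counted above as 1 of the 3 lower ones, beside Myc and Junb. Of 11 myeloid and dendritic cell markers 7 were measured, 6 of them higher and 1 lower, with a summed level on the linear scale of 1158 to 1604 in DOCK8-deficient and 984.1 to 1134 in wild type samples. Much of this sum came from Siglech, which differed by 0.23 with overlapping groups. The groups did not overlap for Fcgr3 and Mpeg1 and did for the other measured markers. Itgam, Cd14 and Itgax were not detected on enough arrays, and Cd68 had no probe listed under its symbol alone. The part of such cells in these results was not tested.

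**Figure D5:**
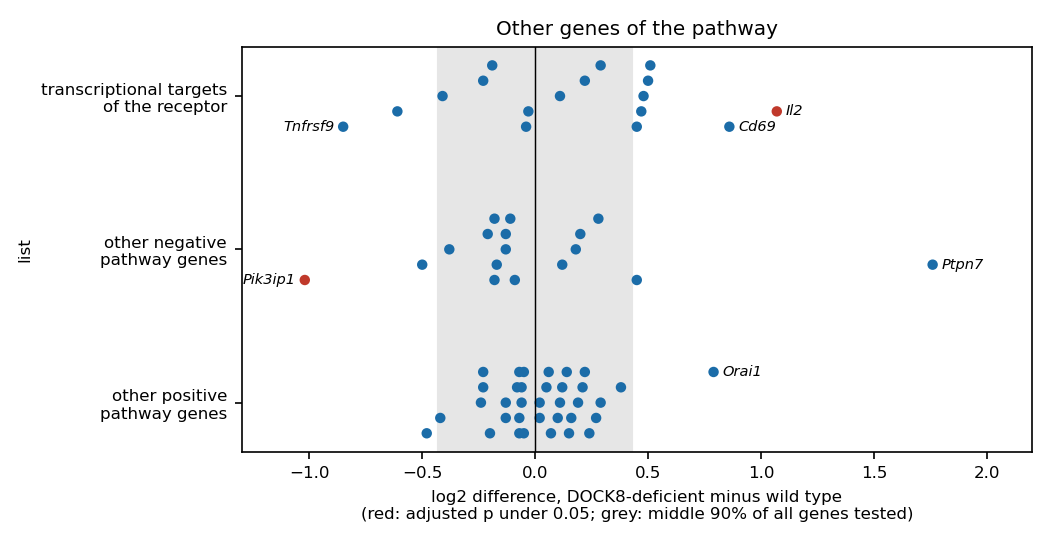
Log2 difference, DOCK8-deficient minus wild type, of the 69 other pathway genes in their 3 lists (offset in height for legibility); red points passed at an adjusted p under 0.05 and the grey band holds the middle 90% of all genes tested (-0.43 to 0.43). Il2 and Pik3ip1 are red, and Ptpn7 stands far right on account of 1 wild type array.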

How the data were processed

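The deposited scanner table gives an intensity per probe and array, with a detection p-value beside it, per the file headers. From the values, no background had been subtracted. The deposited series table is on a log2 scale, judged from its range. The authors' normalization of it is not given in these sources.

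The neqc function of limma (version 3.58.1, under R 4.3.3) subtracted background, added an offset of 16 and equalised quantiles. Platform annotation gave 1 symbol for 34885 of the 45281 probes, several for 18 and none for 10378. Probes entered when detected (p under 0.05) on 3 or more arrays, and the brightest stood for the gene. Groups, taken from the sample titles, were compared over 9060 genes with lmFit and eBayes, 2-sided, with Benjamini-Hochberg adjustment and a threshold of 0.05; errors beside differences are moderated standard errors. Functions were tested on simulated data. The genes and lists were chosen with earlier results of these data known.

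Each measured gene of the set was described. Values on every array were given for those past the threshold or at an unadjusted p under 0.05 and for the smallest p of each role, then for further ones; in other lists the called genes, or the 3 of smallest p, were named. Alternatives were no background correction, normexp with an offset of 50, median scaling, the deposited log2 table, no or a stricter filter, the mean of probes, a trended robust prior, the replicate number as a block and leaving out each array. No slide or scan is given, so no such block was run. The number of arrays limits the precision.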

Additional observations from a re-analysis of the deposited data

How the results depend on the processing

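The count of called receptor chain genes was 0 under all 15 alternatives. The number of them at an unadjusted p under 0.05, 4 as reported, ran from 0 to 5. Of 461 recomputed differences of these genes, 452 moved by less than the spread between replicates and 9 by more. Under both filter settings, the trended robust prior and the replicate block they did not move, as probes and group means stayed the same. Nor could the mean of probes move a gene with 1 detected probe. The 452 include all these, so they overstate how stable the differences were. The sign was kept throughout for 17 of the 31 genes and changed at least once for 14. The median difference stayed between -0.053 and 0.007. Over all genes the 33 calls became 132 without background correction, 116 with normexp, 126 in the deposited table, 165 with a trended robust prior, 54 with the stricter filter and 62 with median scaling, where the split was 23 up and 39 down (19 and 14 as reported); leaving out 1 array gave 2 to 15. The 2 calls among other pathway genes became 4 without background correction, with normexp, in the deposited table and with the trended robust prior (Orai1 and Cd69 added), and 0 without any single array; with median scaling there were again 2, Pik3ip1 and Ptpn7, with Il2 lost. The replicate block gave 0 calls over all genes, 0 in the receptor chain and 0 among other pathway genes. Correlations of the deviations from group means were 0.0437, -0.148 and -0.271 for same-numbered samples. For differently numbered ones they ran from -0.207 to 0.362. Such deviations offset one another within a group of 3, so these values cannot decide whether the numbers pair the samples. With median scaling, the p-values of the genes described here followed the size of the difference, whatever their own spread. Cd3e and Nfatc2 both stood at -0.14 with an unadjusted p of 0.64 by limma. Their pooled standard deviations in the main processing were 0.042 and 0.24. The calls under that setting therefore rank genes by difference alone. The causes were not tested.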

Other observations

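Ptpn7, which encodes a phosphatase of MAP kinases and was singled out after its values were seen, read 9.97, 10.07 and 9.70 in DOCK8-deficient samples and 9.98 and 9.94 in wild type replicates 2 and 3, but 4.56 in wild type replicate 1. Its scanner intensity there was 186, with a detection p of 0.90, against 875.5 to 1401 on the other arrays. The log2 difference of 1.76 ± 1.29 (adjusted p = 0.67 by limma) rests on that array and was -0.05 without it. With median scaling the difference was 1.62 and passed (adjusted p = 3.6e-05 by limma). Under that setting p followed the size of the difference and not the gene's own spread. The call therefore does not reflect how far wild type replicate 1 lay from the other arrays. Over the other alternatives the adjusted p was 0.55 to 0.97.

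Fyn, the Src family kinase that acts beside LCK, was also chosen after its values were seen and had wide replicates: 9.71, 8.67 and 8.06 in DOCK8-deficient and 9.44, 8.78 and 9.46 in wild type samples (log2 difference -0.42 ± 0.40, adjusted p = 0.76).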
